A study of Mus musculus with 3 samples.

Results

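The genes described here are 10 small leucine-rich proteoglycans, picked by name out of the 23284 gene symbols that each library lists, and all 10 were found. They are Dcn, Bgn and Aspn of class I, Fmod, Lum, Kera and Omd of class II, Ogn and Epyc of class III, and Chad of class IV. Their RNA was measured by RNA-seq in 3 libraries of cells sorted from mouse embryo digits, 1 library for each population. The Lgr5+ population was GFP-positive and sorted at E14.5 (E counts embryonic days) out of forelimb digits of Lgr5-eGFPCreERT2/+ mice, and the labels call them interzone, the band where a joint will form. The Lgr5- population was the GFP-negative remainder of such forelimb digits, same genotype and day, called non-interzone by the labels. The Sox9+ population was sorted at E13.5 out of digits of Sox9-eGFP/+ mice, and Sox9 is the master regulator of cartilage cells. All 3 populations share the background that the labels write as C57/bl6, and each carries 1 reporter allele. The gates were set on GFP alone, so the Lgr5- library holds whatever digit cell lacked the signal, and the number of embryos behind each library is not given in the sources used here.

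Small leucine-rich proteoglycans are secreted proteins whose curved core of leucine repeats binds collagen. They set the width and spacing of collagen fibrils, and several also hold growth factors such as TGF-beta in the matrix. Most carry chondroitin, dermatan or keratan sulfate chains, and tendon, ligament, cartilage, bone and cornea each have their own mixture of them.

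Values are FPKM (fragments scaled to transcript length and to the mapped total), which the authors computed and which can be compared between genes because they are set per length. Folds compare FPKM + 1 between libraries. A gene is measured where its higher library has 1 FPKM or more, and differences are counted from 2-fold upward. With 1 library per population nothing below carries an error or a p-value, and each difference describes libraries, not conditions. Lgr5 stood at 26.8 FPKM in Lgr5+ cells, 1.36 FPKM in Lgr5- cells and 3.48 FPKM in Sox9+ cells. The interzone growth factor gene Gdf5 stood at 614.8, 71.7 and 59.9 FPKM in the same libraries, and Sox9 at 332.0, 147.1 and 254.7 FPKM, so Sox9 RNA was not highest in the library named for it. Between the E14.5 libraries and the Sox9+ library the day, the reporter line and the gate all change, and the labels name no limb for the Sox9+ digits, so these cannot be told apart. In all libraries, fewer cells of a type and less RNA per cell cannot be told apart either.

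The 10 genes did not share a pattern. Dcn, Fmod and Kera were high in Lgr5+ cells, Epyc was high in Sox9+ cells and near 1 FPKM at E14.5, and Chad was high in the Lgr5+ and Sox9+ libraries and low in Lgr5- cells. Bgn, Aspn, Lum and Ogn lay within 2-fold in every pair of libraries. The Lgr5+ library held the highest level of 5 of the 10 (Dcn, Bgn, Fmod, Lum, Kera), the Lgr5- library that of Ogn alone, and the Sox9+ library that of the other 4.

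**Figure D1:**
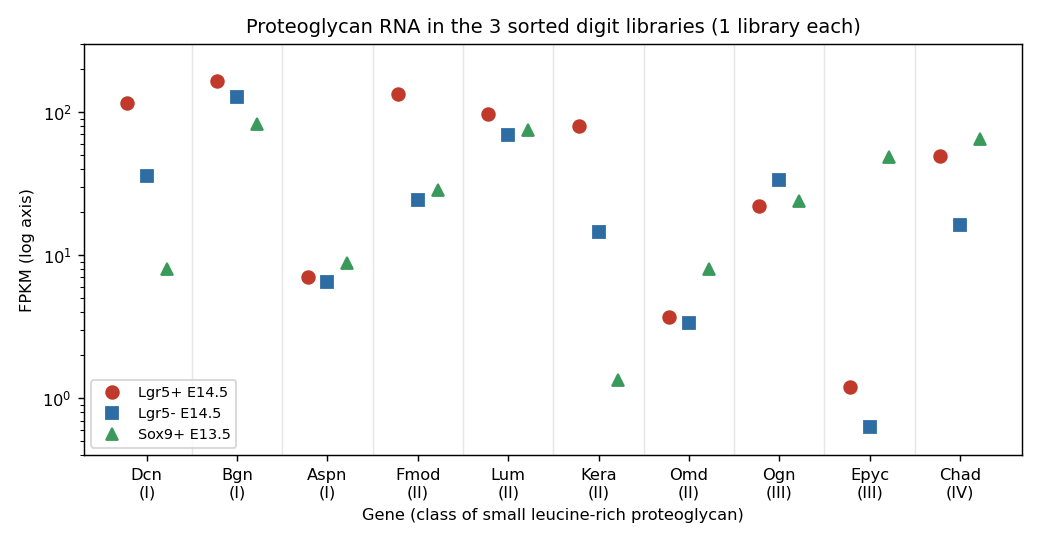
FPKM on a log axis of the 10 proteoglycan genes in the Lgr5+ (circles), Lgr5- (squares) and Sox9+ (triangles) libraries, 1 library each, with the class in brackets. Kera spans 80.6 to 1.34 FPKM and Epyc 0.63 to 48.8 FPKM, with Sox9+ lowest for Kera and highest for Epyc, while Lum and Aspn hardly separate the libraries.

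Most of these genes sit in clusters, and neighbours differed in pattern. Dcn (97479609 to 97518143), Lum (97565128 to 97572703), Kera (97606879 to 97613692) and Epyc (97644068 to 97682454) lie in that order on the plus strand of chromosome 10 (GRCm38, GENCODE M21), within 202.8 kb. Kera ends 30.4 kb before Epyc begins, and of this adjacent pair Kera is lowest and Epyc highest in Sox9+ cells. Kera stood at 67.2 times the FPKM of Epyc in Lgr5+ cells and 23.0 times in Lgr5- cells, against 0.027 times in Sox9+ cells. Lum, 34.2 kb before Kera, hardly differed between libraries. Aspn (49544443 to 49567565), Omd (49582462 to 49592822) and Ogn (49608046 to 49624501) lie on chromosome 13, beside the related gene Ecm2 and inside the span of Cenpp on the other strand. None of the 3 was 2-fold different between the E14.5 libraries. Fmod (chromosome 1, 134037254 to 134048277, plus strand) lies 115.8 kb from its relative Prelp, Chad is on chromosome 11 (94565047 to 94569127, plus strand) within the span of Acsf2, and Bgn is on X (73483602 to 73495933, plus strand). All 10 are annotated as protein-coding, and the spans are those of the whole gene with exons, introns and UTRs.

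**Figure D2:**
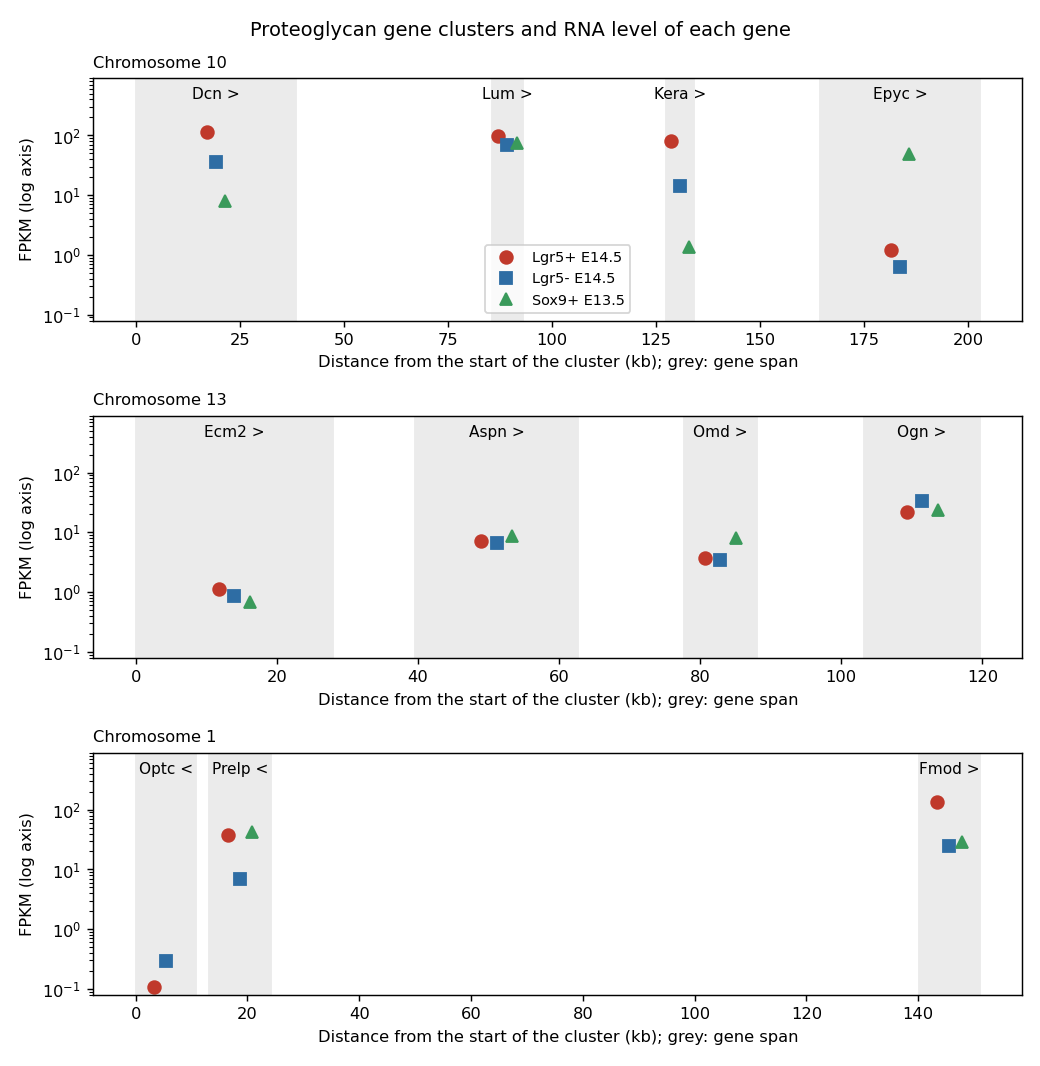
Gene spans (grey) of the 3 proteoglycan clusters by distance from the start of each cluster in kb, with the FPKM of each gene on a log axis in the Lgr5+ (circles), Lgr5- (squares) and Sox9+ (triangles) libraries. Marks show transcription to the right (>) or left (<), Optc is listed at 0 in Sox9+ cells and has no point there, and of the neighbours Kera and Epyc the Sox9+ library is lowest for Kera and highest for Epyc.

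The kit is not described as keeping strand, so overlaps matter for 2 of these loci. The lincRNA Gm10754 overlaps Epyc on the other strand and shares 1041 exon bases with it, and it stood at 0.13 FPKM in Lgr5+ cells, 0.04 FPKM in Lgr5- cells and 5.37 FPKM in Sox9+ cells, the same order of extremes as Epyc with lower values. Reads of the shared bases cannot be assigned to either gene. Cenpp, at 11.2, 8.89 and 12.6 FPKM in the same libraries, shares 7 exon bases with Aspn and 0 with Omd or Ogn, and Acsf2 shares 0 with Chad.

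The bases upstream of Fmod, Epyc and Chad are shown as examples of 3 patterns. Fmod was high in Lgr5+ cells, Epyc high in Sox9+ cells, and Chad low in Lgr5- cells. Kera and Dcn had wider ranges than Fmod and Chad. They are not shown: no window was found for Dcn, and that of Kera lies inside an exon. The sequences are RefSeq's (GRCm38.p6, plus strand, 5′ to 3′) and run up to the base before an annotated start, except that the second Epyc stretch stops 14 bases short, where an annotated exon begins. They lie at chr1:134037004-134037253 for Fmod, chr10:97643818-97644067 and chr10:97646853-97647088 for the starts of Epyc, and chr11:94564797-94565046 for Chad. Capitals mark matches on either strand to an E-box (CANNTG), a Sox-type motif (ACAATG), an AP-1 type motif (TGANTCA), a Runx-type motif (TGTGGT) or a TATA box (TATAAA).
Fmod: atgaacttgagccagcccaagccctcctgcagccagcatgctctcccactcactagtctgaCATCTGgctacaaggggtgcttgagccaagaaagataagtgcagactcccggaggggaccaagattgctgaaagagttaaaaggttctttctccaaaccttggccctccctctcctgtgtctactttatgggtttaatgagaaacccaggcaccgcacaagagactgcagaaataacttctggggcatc
Epyc, first start: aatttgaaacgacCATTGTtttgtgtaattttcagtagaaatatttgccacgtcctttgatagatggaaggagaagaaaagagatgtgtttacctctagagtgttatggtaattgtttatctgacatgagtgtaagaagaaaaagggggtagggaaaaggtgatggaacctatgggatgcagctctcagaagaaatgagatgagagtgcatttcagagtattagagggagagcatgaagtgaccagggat
Epyc, second start: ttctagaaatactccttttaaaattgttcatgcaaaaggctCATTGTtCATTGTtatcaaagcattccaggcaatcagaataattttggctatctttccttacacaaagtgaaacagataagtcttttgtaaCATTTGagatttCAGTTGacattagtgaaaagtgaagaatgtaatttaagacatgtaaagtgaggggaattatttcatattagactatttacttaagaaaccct
Chad: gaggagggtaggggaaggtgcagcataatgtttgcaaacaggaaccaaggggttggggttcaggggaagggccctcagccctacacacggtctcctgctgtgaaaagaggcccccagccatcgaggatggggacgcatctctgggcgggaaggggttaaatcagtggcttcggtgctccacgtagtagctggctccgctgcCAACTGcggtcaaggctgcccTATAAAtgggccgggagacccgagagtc
Upstream windows of 250 bases were found for 8 of the 10 genes, all but Dcn and Lum, 9 windows in all because Epyc has 2. Sox-type letters were found in both Epyc windows, once in the first (237 to 232 bases before the start) and at a pair of sites in the second (209 to 204 and 202 to 197), and in no other window, against 10.7% of all 32851 mouse windows of this length. The letters of the TATA box stood 28 to 23 bases before the start of Chad. They were also found farther from the start in the Aspn window (207 to 202 and 178 to 173) and the Ogn window (229 to 224 and 227 to 222). That makes 3 of 9 windows, against 12.4% of all windows. E-boxes were found in 6 of 9 windows and in 66.2% of all, the Runx-type motif in 1 of 9 and 14.0% of all, and the AP-1 type in 0 of 9 and 6.75% of all. No motif was found for Kera, whose window lies with all 250 bases inside the first exon of the GENCODE model, nor for Omd. These are letter matches and no record of binding.

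Among the class I genes, Dcn varied most. Dcn encodes decorin, which binds along collagen fibrils and holds TGF-beta, and it stood at 115.3 FPKM in Lgr5+ cells, 36.0 FPKM in Lgr5- cells and 7.97 FPKM in Sox9+ cells. The libraries are thus clearly stepped, with Lgr5+ highest and Sox9+ lowest. Its fold was 3.14 for Lgr5+ over Lgr5-, 12.96 for Lgr5+ over Sox9+ and 4.12 for Lgr5- over Sox9+. In rank among all genes Dcn was number 735 in Lgr5+ cells, 2226 in Lgr5- cells and 6996 in Sox9+ cells. Bgn encodes biglycan, the close relative of decorin that is abundant in young bone and cartilage, and it was the most abundant of the 10 in every library, at 164.3, 127.6 and 82.6 FPKM in the Lgr5+, Lgr5- and Sox9+ libraries. It kept the order of Dcn with smaller steps, and its Lgr5+ over Sox9+ fold of 1.98 lies just under the 2-fold line. Dcn therefore made up 0.70 of the Bgn level in Lgr5+ cells, 0.28 in Lgr5- cells and 0.096 in Sox9+ cells, a ratio that no common factor applied to a library can change. Aspn encodes asporin, a class I protein with a run of aspartates that limits TGF-beta signalling in cartilage. It was low and flat at 7.10, 6.54 and 8.82 FPKM in the same libraries, and the sign of its small Lgr5+ over Lgr5- difference flips under 1 of the 6 other scalings (log2 0.10 as deposited, lowest -0.00066).

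The class II genes split into a pair that marked the Lgr5+ library and a pair that did not. Fmod encodes fibromodulin, a keratan sulfate proteoglycan of tendon and cartilage fibrils, and it stood at 134.6 FPKM in Lgr5+ cells, 24.5 FPKM in Lgr5- cells and 28.6 FPKM in Sox9+ cells. Only the Lgr5+ library stands apart, by 5.33-fold over Lgr5- and 4.58-fold over Sox9+, while the Lgr5- and Sox9+ libraries differ by 1.16-fold. Lum encodes lumican, which shares a binding region on collagen with fibromodulin, and it stood at 96.5, 68.9 and 75.7 FPKM in the Lgr5+, Lgr5- and Sox9+ libraries, with no fold above 1.39. Fmod RNA therefore exceeded Lum RNA in Lgr5+ cells, at 1.39 times its level, and was below it at 0.35 times in Lgr5- cells and 0.38 times in Sox9+ cells. Kera encodes keratocan, a keratan sulfate proteoglycan known from the cornea and also used as a marker of developing tendon. It stood at 80.6 FPKM in Lgr5+ cells, 14.52 FPKM in Lgr5- cells and 1.34 FPKM in Sox9+ cells, the widest range of the 10 genes on the FPKM + 1 scale. Its fold was 5.26 for Lgr5+ over Lgr5-, 34.9 for Lgr5+ over Sox9+ and 6.63 for Lgr5- over Sox9+. Because the Sox9+ value is so low, the log2 ratio of Lgr5+ over Sox9+ of 5.12 depends on the constant added, and runs from 3.76 with 5 FPKM added to 5.81 with 0.1 FPKM added. Omd encodes osteomodulin, a keratan sulfate proteoglycan of bone, and it was low throughout, at 3.72, 3.38 and 7.96 FPKM in the Lgr5+, Lgr5- and Sox9+ libraries. The E14.5 libraries were alike and below the Sox9+ library, by 1.90-fold for Lgr5+ and 2.05-fold for Lgr5-, on either side of the 2-fold line.

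Of the class III genes, Epyc set the Sox9+ library apart from both E14.5 libraries and Ogn separated little. Epyc encodes epiphycan, a dermatan sulfate proteoglycan of growth plate cartilage, and it stood at 1.20 FPKM in Lgr5+ cells and 0.63 FPKM in Lgr5- cells, against 48.8 FPKM in Sox9+ cells. Both E14.5 libraries were thus near the limit of what is counted here, 22.6-fold and 30.6-fold below the Sox9+ library, and their own difference of 1.35-fold rests on values near 1 FPKM. With 5 FPKM added in place of 1, the log2 ratios of -4.50 and -4.93 become -3.12 and -3.26. The main cartilage collagen gene Col2a1 was lower at E14.5 too, but by less, at 2253 FPKM in Lgr5+ cells, 1401 FPKM in Lgr5- cells and 5304 FPKM in Sox9+ cells. Ogn encodes osteoglycin, also called mimecan, and was the only member highest in Lgr5- cells, at 22.2 FPKM in Lgr5+ cells, 33.4 FPKM in Lgr5- cells and 23.9 FPKM in Sox9+ cells. Its folds were 1.48 or less.

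Chad, the class IV gene, encodes chondroadherin, a cartilage protein that binds collagen and an integrin and carries no long chain. It stood at 49.4 FPKM in Lgr5+ cells, 16.2 FPKM in Lgr5- cells and 64.98 FPKM in Sox9+ cells, so the Lgr5- library alone was low. The fold was 2.93 for Lgr5+ over Lgr5-, 1.31 lower for Lgr5+ against Sox9+, and 3.84 lower for Lgr5- against Sox9+. Set against Col2a1 in the same library, Chad made up 0.022 of its level in Lgr5+ cells, 0.012 in Lgr5- cells and 0.012 in Sox9+ cells. Epyc made up 0.024 of the Chad level in Lgr5+ cells, 0.039 in Lgr5- cells and 0.75 in Sox9+ cells, so these cartilage members did not share a pattern.

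Summed over the 10 genes, FPKM reached 674.9 in Lgr5+ cells, 331.6 in Lgr5- cells and 350.7 in Sox9+ cells. Dcn, Fmod and Kera alone, grouped here after their values were seen, held most of that difference: they summed to 330.4 FPKM in Lgr5+ cells, 75.0 FPKM in Lgr5- cells and 37.9 FPKM in Sox9+ cells, whereas the other 7 summed to 344.4, 256.7 and 312.8 FPKM. The 3 genes made up 49.0% of the family's FPKM in Lgr5+ cells, 22.6% in Lgr5- cells and 10.8% in Sox9+ cells. By class, class II led in Lgr5+ cells with 46.7%, class I led in Lgr5- cells with 51.3%, and in Sox9+ cells class II (32.4%), class I (28.3%), class III (20.7%) and class IV (18.5%) came closest to even. Within a library the order of levels was Bgn, Fmod, Dcn, Lum, Kera, Chad, Ogn, Aspn, Omd and Epyc for Lgr5+, with each of the first 5 within 1.22-fold of the next in that order down to Kera. For Lgr5- it was Bgn, Lum, Dcn, Ogn, Fmod, Chad, Kera, Aspn, Omd and Epyc, where Dcn and Ogn lay 1.07-fold apart and Chad and Kera 1.11-fold. For Sox9+ it was Bgn, Lum, Chad, Epyc, Fmod, Ogn, Aspn, Dcn, Omd and Kera, where Aspn lay 1.09-fold above Dcn, and Dcn and Omd were nearly level at 7.97 and 7.96 FPKM.

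**Figure D3:**
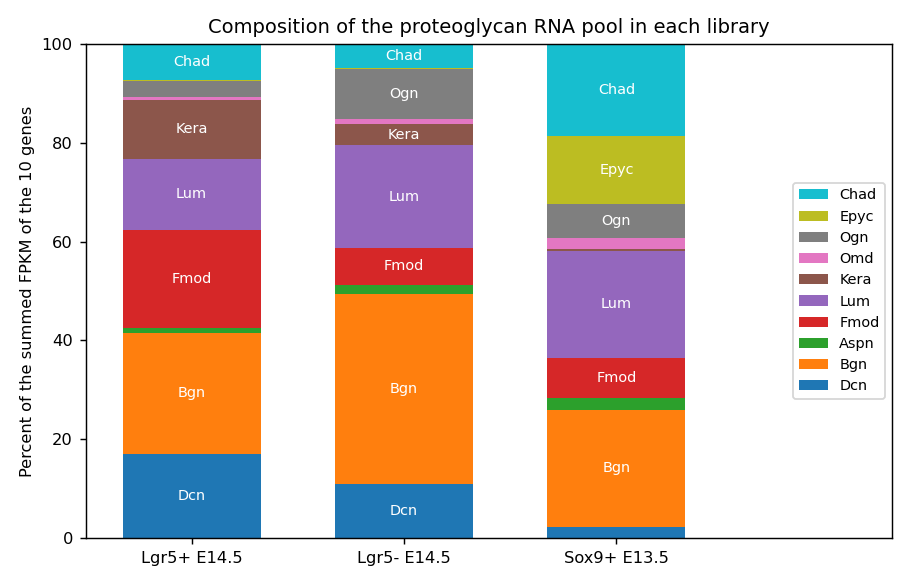
Stacked bars of the share of each gene, in percent, of the summed FPKM of the 10 proteoglycan genes in the Lgr5+, Lgr5- and Sox9+ libraries. Dcn, Fmod and Kera take 49.0% of the Lgr5+ bar and 10.8% of the Sox9+ bar, where Epyc and Chad take 13.9% and 18.5%.

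Lgr5+ against Lgr5- sets cells labelled interzone beside the remaining digit cells of that day. Of the 10 genes, all measured, 4 reached 2-fold higher for Lgr5+ (Dcn, Fmod, Kera and Chad) and 0 at least 2-fold lower, beside 3.64% and 1.89% of the 12438 genes measured. Their median log2 ratio was 0.46, against 0.08 over all measured genes. Taken singly, 9 lay above 0 and Ogn below. Lgr5+ against Sox9+ sets those labelled interzone beside digit cells sorted on the Sox9 reporter at E13.5. There 3 were at least 2-fold higher (Dcn, Fmod and Kera), beside 4.33% of 12492 genes, and 1 at least 2-fold lower (Epyc), beside 3.96%. The median was 0.12 against 0.06 over all genes. For Lgr5- against Sox9+, 2 were at least 2-fold higher (Dcn and Kera), beside 3.08% of 12482 genes, and 3 at least 2-fold lower (Omd, Epyc and Chad), beside 4.94%. The median was -0.18 against -0.01 over all genes. Over all genes, 541 were higher and 495 lower for Lgr5+ over Sox9+, and 384 and 617 for Lgr5- over Sox9+, splits that became 981 and 533, and 706 and 644, when libraries were rescaled to TPM. These 3 comparisons use 3 libraries in pairs, so the ratios of any pair of comparisons fix those of the other, and they are no independent views.

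**Figure D4:**
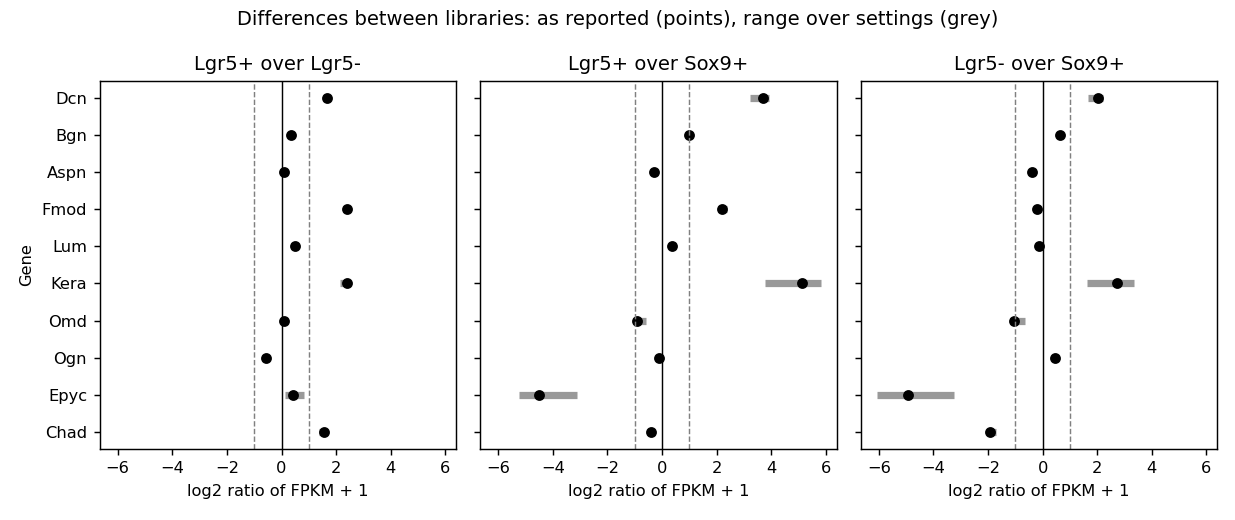
Log2 ratio of FPKM + 1 of each gene for Lgr5+ over Lgr5-, Lgr5+ over Sox9+ and Lgr5- over Sox9+ (points), with the lowest and highest value over 11 settings of constant, minimum and scaling (grey bars) and 2-fold marked by dashed lines. Dcn and Kera lie right of the 2-fold line in all 3 panels, and Epyc lies far left of it in both panels against Sox9+.

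Markers of other tissues differed along with these genes, and their part in the results was not tested. The counts here and for the cartilage lists below stand beside shares over all measured genes. These were 3.64% higher and 1.89% lower for Lgr5+ over Lgr5-. They were 4.33% and 3.96% for Lgr5+ over Sox9+, and 3.08% and 4.94% for Lgr5- over Sox9+. Of 13 tendon and ligament markers, none of them a proteoglycan of this family, 6 were at least 2-fold higher and 0 lower for Lgr5+ over Lgr5-, and 8 higher and 2 lower for Lgr5+ over Sox9+. Scx, the tendon transcription factor gene, stood at 194.5 FPKM in Lgr5+ cells, 80.6 FPKM in Lgr5- cells and 42.5 FPKM in Sox9+ cells, and Tnmd, the tendon membrane protein gene, at 41.6, 16.0 and 3.38 FPKM, both in the order of Dcn and Kera. The summed FPKM of the tendon list, in which Egr1 has the largest share, was 1336 in Lgr5+ cells, 988.8 in Lgr5- cells and 1500 in Sox9+ cells, and no marker was at 0. Of the muscle markers, 8 of 9 measured were at least 2-fold higher for Lgr5+ over Lgr5-, and the 12 listed summed to 107.2, 27.4 and 18.6 FPKM in the Lgr5+, Lgr5- and Sox9+ libraries, with 2 of them at 0 in Sox9+ cells. Epidermal markers (6 of 9 higher) summed to 68.8, 20.9 and 39.5 FPKM, with none at 0, and macrophage markers (3 of 9 higher) to 86.6, 45.5 and 11.8 FPKM, with 1 at 0 in Sox9+ cells. Red blood cell markers summed to 151.5 FPKM in Lgr5+ cells, 3977 FPKM in Lgr5- cells and 140.8 FPKM in Sox9+ cells, with 7 of 8 measured lower and 1 at 0 in each of the Lgr5+ and Sox9+ libraries. Endothelial markers (0 of 8 different) summed to 17.8, 24.7 and 13.3 FPKM, and Schwann cell markers (1 of 5 higher) to 15.0, 9.88 and 34.6 FPKM, with 1 at 0 in Lgr5+ cells. Loose connective tissue and dermis markers, cells that also make decorin and lumican, had 0 of 8 higher and 2 lower, and summed to 814.9, 986.2 and 756.9 FPKM in the same libraries, with 1 at 0 in Sox9+ cells. For Lgr5+ over Sox9+, 9 of 9 muscle, 7 of 9 macrophage, 4 of 9 epidermal and 3 of 8 connective tissue markers were at least 2-fold higher, and 0 of these were lower. Schwann cell markers had 0 of 5 higher and 2 lower there, and red blood cell markers 1 of 7 higher and 1 lower. Endothelial markers had 0 of 7 higher and 0 lower. For Lgr5- over Sox9+, 7 of 7 red blood cell and 4 of 6 macrophage markers were higher, with 0 lower. In that comparison 3 of 13 tendon and ligament markers were higher and 1 lower, and 1 of 13 interzone markers was higher and 1 lower. Epidermal markers had 0 of 6 higher and 3 lower, and Schwann cell markers 0 of 5 higher and 4 lower. Muscle markers had 1 of 7 higher, connective tissue markers 1 of 8 and endothelial markers 0 of 8, with 0 lower. Interzone markers had 10 of 13 higher for Lgr5+ over Lgr5- and 9 for Lgr5+ over Sox9+, with 0 lower in either. That list holds Lgr5, the gene whose reporter set the gate, so its call between the E14.5 libraries follows from the sort. Counts of low markers depended on the constant and the minimum: over the 11 settings, the number higher for Lgr5+ over Lgr5- ran from 4 to 9 for muscle, from 2 to 8 for epidermis and from 2 to 5 for macrophages, while it was 6 for tendon and 10 for interzone throughout. For Lgr5+ over Sox9+ it ran from 4 to 9 for muscle, from 2 to 9 for macrophages, and from 1 to 4 for epidermis and for connective tissue.

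Cartilage markers, against which Epyc and Chad can be read, had 5 of 18 at least 2-fold higher and 2 lower for Lgr5+ over Lgr5-, 1 higher and 11 lower for Lgr5+ over Sox9+, and 0 of 17 higher and 16 lower for Lgr5- over Sox9+. Prehypertrophic and hypertrophic markers had 0 of 10 higher and 4 lower for Lgr5+ over Lgr5-, the comparison in which Chad was higher. The 4 were Runx3 (4.22-fold), Runx2 (3.78-fold), Sp7 (3.51-fold) and Alpl (2.80-fold), of which Sp7 and Alpl were no longer counted with 5 FPKM added. The same list had 10 of 12 lower for Lgr5+ over Sox9+ and 7 of 12 lower for Lgr5- over Sox9+. Epyc, at 22.6-fold and 30.6-fold lower, lay beyond the median of either list in both comparisons. Those medians were log2 -1.25 and -2.17 for Lgr5+ over Sox9+, and -1.94 and -1.16 for Lgr5- over Sox9+. Single markers came as far down: for Lgr5+ over Sox9+ Comp was 24.6-fold and Smpd3 26.6-fold lower, both beyond Epyc. For Lgr5- over Sox9+ Comp was 7.21-fold and Smpd3 24.5-fold lower, both short of Epyc.

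For the 6 members with at least a 2-fold range over the libraries, so not for Bgn, Aspn, Lum or Ogn, the genes with the most alike levels were found by the distance between log2(FPKM + 1) values over the 3 libraries, with the mean of each gene removed. Of 7014 other genes at 10 FPKM or more in some library, Dcn lay nearest to Tnmd at 0.31, then C1qb at 0.41 and Pdlim3 at 0.59. C1qb is a complement gene of macrophages. Fmod lay nearest to Itga11 at 0.10, the gene of a collagen-binding integrin subunit, then Gm6644 at 0.12 and Tcp11l2 at 0.16. Kera had no close match, with Tnmd at 1.31, Adck3 at 1.32 and C1qb at 1.40. Chad lay nearest to Itm2a at 0.07, a membrane protein gene of early cartilage, then Ckb at 0.15 and Dusp8 at 0.21. Omd lay within 0.04 of Entpd6, Rpl30 and Fbxo33, and Epyc nearest to Gm5506 at 0.29, Mir1193 at 0.31 and Snora62 at 0.37, the last 2 of which are short RNA genes listed at 0 in both E14.5 libraries. With 3 libraries a pattern is 3 numbers, and nearness over so few values says little. Among the members themselves the nearest pairs with at least a 2-fold range were Dcn and Kera, at 1.01, and Omd and Chad, almost level at 1.03. The farthest pair was Kera and Epyc, at 7.19.

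Of 8 further leucine-rich proteoglycan genes, Prelp and Chadl repeated the pattern of Chad. Prelp, whose product binds collagen and heparan sulfate, stood at 37.6 FPKM in Lgr5+ cells, 6.83 FPKM in Lgr5- cells and 42.1 FPKM in Sox9+ cells, and lies in the Fmod cluster. Prelp shares 350 exon bases with Gm15851 on the other strand, a gene with no value in these libraries. Chadl encodes the chondroadherin-like protein of cartilage, and stood at 255.4, 69.9 and 169.3 FPKM in the same libraries, above every one of the 10 genes in the Lgr5+ and Sox9+ libraries. It overlaps L3mbtl2 on the other strand by 1023 exon bases, and that gene stood at 10.1, 6.86 and 6.39 FPKM. Prelp was 4.93-fold higher for Lgr5+ over Lgr5- and Chadl 3.62-fold higher, and both were at least 2-fold lower for Lgr5- over Sox9+ (5.50-fold and 2.40-fold) and within 2-fold for Lgr5+ over Sox9+. Tsku, which encodes a secreted signalling inhibitor, stood at 12.0, 7.90 and 7.35 FPKM and was within 2-fold in every pair. Ecm2, the neighbour of Aspn, stood at 1.14, 0.87 and 0.69 FPKM, and Podnl1 at 0.15, 1.05 and 0.92 FPKM, within 2-fold wherever measured. Podn, Nyx and Optc stayed under 1 FPKM in all libraries, and Optc is listed at 0 in Sox9+ cells.

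The collagens that these proteins bind differed in their own way. Over all measured genes, 3.64% were at least 2-fold higher and 1.89% lower for Lgr5+ over Lgr5-. Those shares were 4.33% and 3.96% for Lgr5+ over Sox9+, and 3.08% and 4.94% for Lgr5- over Sox9+. Of 17 measured collagen chains, 3 were at least 2-fold higher for Lgr5+ over Lgr5- (Col9a2, 2.21-fold, Col9a3, 2.13-fold, and Col6a1, 2.01-fold) and 0 lower. Col9a2 kept this call in all 11 settings of constant, minimum and scaling, the reported one among them. Col9a3 kept it in 8 (lowest log2 0.97), and Col6a1 kept it in 5 and lost it in 6 (lowest log2 0.89). The count thus ran from 1 to 3, and a change of minimum leaves these ratios as they are. Col1a1, the main fibril collagen of tendon and bone, stood at 1198 FPKM in Lgr5+ cells, 997.9 FPKM in Lgr5- cells and 769.2 FPKM in Sox9+ cells, within 2-fold in every pair. Dcn made up 0.096 of the Col1a1 level in Lgr5+ cells, 0.036 in Lgr5- cells and 0.010 in Sox9+ cells, so this ratio spanned a wider range than Col1a1 itself. For Lgr5+ over Sox9+ 1 chain was higher (Col6a1, 2.37-fold) and 4 lower, led by the cartilage chains Col11a2 (2.86-fold), Col11a1 (2.42-fold) and Col2a1 (2.35-fold), and after quantile normalization 2 were lower, Col2a1 no longer among them (log2 -0.92). For Lgr5- over Sox9+ 0 were higher and 6 lower, led by Col11a2 (4.18-fold), Col11a1 (3.90-fold), Col9a3 (3.83-fold) and Col2a1 (3.78-fold), and the count was 6 in all 11 settings.

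Of the enzymes that build and sulfate the chains, Chst5 was higher in Lgr5+ cells, and some others were lower in the E14.5 libraries than in Sox9+ cells. Of 30 measured, 1 was at least 2-fold higher for Lgr5+ over Lgr5- and 1 lower, beside 3.64% and 1.89% of all genes. For Lgr5+ over Sox9+ 1 was higher and 4 lower, beside 4.33% and 3.96%. For Lgr5- over Sox9+ 0 were higher and 2 lower, beside 3.08% and 4.94%. Chst5, which in mouse sulfates the keratan sulfate of the cornea, stood at 26.5 FPKM in Lgr5+ cells, 3.01 FPKM in Lgr5- cells and 4.06 FPKM in Sox9+ cells, 6.87-fold higher than in Lgr5- and 5.44-fold higher than in Sox9+. Like Fmod and unlike Kera, it separated only the Lgr5+ library. Chst15, a chondroitin sulfotransferase gene, was the lower one for Lgr5+ over Lgr5-, at 3.17 FPKM against 7.46 FPKM in Lgr5- cells. Xylt1, which starts the chains, stood at 3.26, 4.44 and 10.7 FPKM in the Lgr5+, Lgr5- and Sox9+ libraries, and the chondroitin sulfotransferase gene Chst11 at 4.75, 4.40 and 14.1 FPKM, so both were lower in the E14.5 libraries. Csgalnact1 was 2.27-fold lower for Lgr5+ over Sox9+. These lower calls rest on low levels: with 5 FPKM added in place of 1, 0 enzymes were lower for Lgr5+ over Lgr5-, 0 for Lgr5+ over Sox9+ and 1 for Lgr5- over Sox9+ (Chst11), and with 0.1 FPKM added 2, 6 and 4 were. Chst5 kept its calls in all 11 settings.

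Of the growth factors and receptors tied to these proteins, 4 of 16 measured were at least 2-fold higher for Lgr5+ over Lgr5- and 0 lower. Over all genes the shares were 3.64% and 1.89%. Itga11 stood at 81.9 FPKM in Lgr5+ cells, 16.0 FPKM in Lgr5- cells and 17.5 FPKM in Sox9+ cells, and Tgfb2, a TGF-beta ligand gene, at 120.3, 27.4 and 36.2 FPKM. In both, as in Fmod, the Lgr5+ library alone was high. The decorin receptor gene Egfr was 2.31-fold higher and the biglycan receptor gene Tlr2 2.01-fold higher for Lgr5+ over Lgr5-. Itga11 and Tgfb2 kept their calls in all 11 settings, and Egfr lost its call with 5 FPKM added (log2 0.93). Tlr2 kept its call in 5 settings, the reported one among them, and lost it in 6 (lowest log2 0.67), so the count ran from 2 to 4. For Lgr5+ over Sox9+ 3 of 18 were higher (Itga11, 4.47-fold, Tgfb2, 3.26-fold, and Wisp1, 2.37-fold), beside 4.33% of all genes. Lower were 2, with Itga10 at 2.21-fold, beside 3.96%. With 5 FPKM added 2 were higher, Itga11 and Tgfb2, and 0 lower. For Lgr5- over Sox9+ 1 of 17 was higher (Tgfbr2, 2.26-fold) and 0 lower, beside 3.08% and 4.94% of all genes. With 5 FPKM added 0 were higher.

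**Figure D5:**
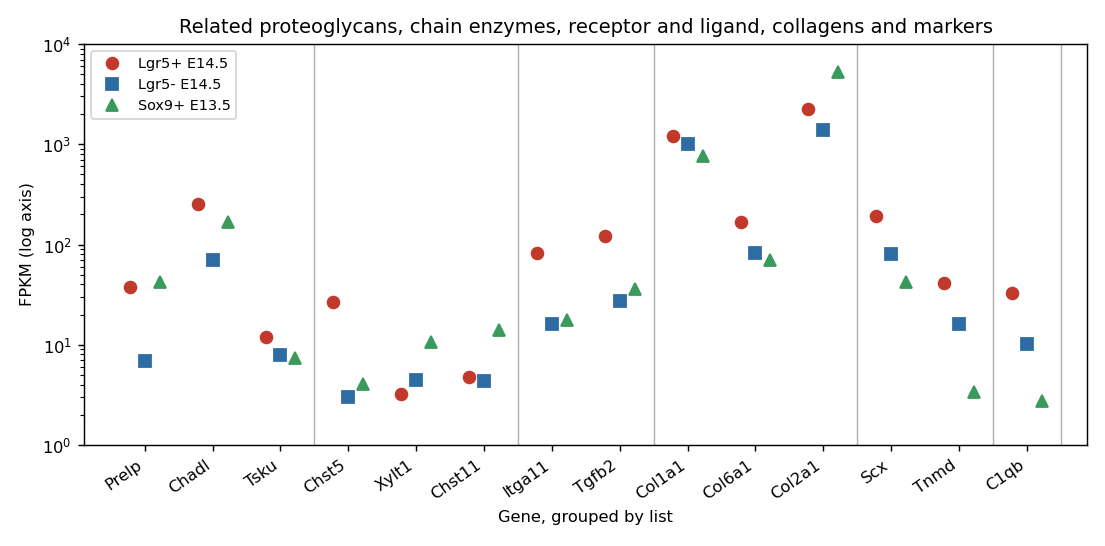
FPKM on a log axis of related proteoglycan genes, chain enzymes, an integrin subunit and a ligand, collagens, tendon markers and a macrophage marker in the Lgr5+ (circles), Lgr5- (squares) and Sox9+ (triangles) libraries, shown for genes picked after their values were seen. Chst5, Itga11 and Tgfb2 are high in Lgr5+ cells alone, Prelp and Chadl are low in Lgr5- cells, and Scx and Tnmd step down from Lgr5+ to Lgr5- to Sox9+.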

How the data were processed

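RNA was measured in 3 libraries, 1 per sorted population, each prepared with the SMARTer Ultra Low kit out of 10 ng RNA, per the labels' protocols. The authors deposited 1 FPKM value per gene symbol, rounded to 2 decimals. The submitters' processing notes name HISAT2 and mm10 (GRCm38); how expression was quantified, with which annotation and strand setting, is not given in the sources used here. Read counts were not used here. A search for the step that 1 fragment leaves in low values scored at most 0.13 (1 would mean all on the step), so depth stays unknown and counting error could not be given. FPKM is a share of a library, so a few abundant RNAs can shift the rest: the ribosomal RNA Rn45s made up 1.86% of summed FPKM for Lgr5+, 6.13% for Lgr5- and 6.43% for Sox9+.

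From these values log2 ratios of FPKM + 1 were computed with Python 3.11.15, numpy 2.4.6 and pandas 2.3.3. The calling step was tested on simulated data. No test was run, since each group is 1 library. The 10 genes were fixed by name. Every one is named, as is each of the related proteoglycans, and from the partner lists those 2-fold different, at most the 4 largest folds per list and comparison. Col1a1 and the marker genes given with values were named outside this rule, after their values were seen. For the 6 members with a 2-fold range, the 3 most alike genes were named too. The members and lists were chosen with earlier results of these data known. Gene spans are from GENCODE M21 and upstream sequences from RefSeq on GRCm38.p6.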

Additional observations from a re-analysis of the deposited data

How the results depend on the processing

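No paired analysis was possible because each group has 1 library, and no replicate could be left out. Over 12 alternatives (a constant of 0.1 or 5 FPKM, no minimum or 10 FPKM, 6 other scalings, a 1.5-fold or 3-fold line), 70 of 72 recounts of members stayed within 1.5 times the count reported. The exceptions were the members lower for Lgr5+ over Sox9+, 1 as reported and 2 with a constant of 0.1 FPKM or a 1.5-fold line, where Omd joined Epyc. A step from 3 to 2 members stays within 1.5 times, so these recounts say little about single members. For the members lower for Lgr5- over Sox9+ that step, the loss of Omd, also came with a minimum of 10 FPKM and with a 3-fold line. A change of minimum leaves a ratio as it is, so part of the 293 recomputed member ratios could not move. Of the 293, 0 reversed a call and 14 moved by over 1.5 times or changed side of the 2-fold line. Bgn passed that line for Lgr5+ over Sox9+ under TPM and when Rn45s and haemoglobin genes were left out of the sum. Omd for Lgr5- over Sox9+ no longer passed it with a constant of 5 FPKM, or with sums without the 100 most abundant genes or without Rn45s and haemoglobin genes. The calls of Dcn, Fmod, Kera, Epyc and Chad kept their side in all 11 settings of constant, minimum and scaling, the reported one among them. With a 3-fold line Chad, at 2.93-fold, was no longer counted for Lgr5+ over Lgr5-. Over the scalings the median log2 ratio of all genes ran from -0.03 to 0.11 for Lgr5+ over Lgr5-, from -0.01 to 0.21 for Lgr5+ over Sox9+ and from -0.01 to 0.11 for Lgr5- over Sox9+. For Lgr5- over Sox9+ the split of all genes was also 480 higher and 508 lower without the 100 most abundant genes, and 486 and 489 without Rn45s and haemoglobin genes. Counts over all genes followed the constant: for Lgr5+ over Lgr5- 694 higher and 458 lower with 0.1 FPKM, and 202 and 81 with 5 FPKM, against 453 and 235 as reported. Unknown depth limits values near 1 FPKM, such as Epyc at E14.5 and Kera in Sox9+ cells.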

Other observations

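Proteases and inhibitors that act on matrix were also read. Of 12 measured, 0 were 2-fold different for Lgr5+ over Lgr5-, beside 3.64% of all genes higher and 1.89% lower. For Lgr5+ over Sox9+ 0 were higher and 2 lower, beside 4.33% and 3.96% of all genes. The lower ones were Mmp9 (0.31 FPKM against 3.09 FPKM in Sox9+ cells) and Adamts1 (47.0 FPKM against 129.2 FPKM in Sox9+ cells). For Lgr5- over Sox9+ 1 was lower, Timp1, at 6.54 FPKM against 15.4 FPKM in Sox9+ cells, beside 4.94% of all genes. With 5 FPKM added Mmp9 and Timp1 no longer reached 2-fold, and Adamts1 did in all 11 settings.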
